A study of Mus musculus with 35 samples.

Results

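The genes described here are 9 surface proteins by which blood-forming progenitor cells are recognised or receive growth signals: Kit, Flt3, Cd34, Cd93, Csf1r, Csf2ra, Csf2rb, Csf3r and Il3ra. They were taken by name and matched by Ensembl identifier in both count tables of the series, and they are 9 of the 55487 genes listed there. All 9 passed the filter on low counts in the main fits of RNA, of footprints and of both together. The series measured mRNA and ribosome footprints, the stretches of mRNA protected by translating ribosomes, in mouse acute myeloid leukemia cells that carry the MLL-AF9 fusion. A scrambled guide RNA (sgScramble) served as control, and the other guide (sgOgfod1) targeted Ogfod1, a prolyl hydroxylase that modifies a ribosomal protein.

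All groups shared the same leukemia. The cells came from a terminally ill mouse, expressed GFP, and were expanded outside the animal in medium with stem cell factor (SCF), interleukin 3 and interleukin 6. SCF is the ligand of Kit and interleukin 3 the ligand of the receptor built from Il3ra. The cells were then injected behind the eye of male recipients 8 to 10 weeks old. Vehicle groups had a diet with a standard set of amino acids and PBS. Treated groups had a diet free of the branched-chain amino acids and the 5+3 chemotherapy regimen. That regimen gave 5 daily doses of cytarabine (100 mg/kg), the first 3 of them along with doxorubicin (3 mg/kg). No group had the diet or the drugs alone, so these cannot be told apart, and both together are called treatment. GFP-positive cells were sorted from the marrow at the point of maximum response to chemotherapy. With sgScramble there were 5 vehicle and 7 treated mice, and footprints were made from 3 and 4 of them. With sgOgfod1 there were 5 vehicle and 6 treated mice, with footprints from 3 and 2. The labels call the replicates biological. How the guides were delivered, and whether the lines were single clones, was not given in the sources used here.

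Growth factor receptors of this kind carry survival and division signals into myeloid progenitors. Kit, Flt3 and Csf1r are receptor tyrosine kinases that dimerise on binding their ligands (SCF, Flt3 ligand, and colony stimulating factor 1 or interleukin 34). Csf2ra and Il3ra are the ligand-binding chains of the receptors for GM-CSF and interleukin 3. They pair with the shared signalling chain Csf2rb, which activates Jak2 and Stat5. In mice a second beta chain, Csf2rb2, pairs with Il3ra alone. Csf3r, the receptor for G-CSF, signals through the same kinases and is carried by granulocytes and their precursors. Cd34 is a sialomucin and Cd93 a C-type lectin-like glycoprotein. Both mark early blood cells as well as endothelium. In MLL-AF9 leukemia Kit, Cd34 and Cd93 are commonly used to mark immature leukemic cells.

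Library totals ran from 31921768 to 142694163 counts in RNA and from 5705585 to 14642692 in footprints. Levels are given in the counts-per-million unit (CPM), with library sizes scaled by the TMM method. Footprints on Ogfod1 were 12.4 to 17.5 CPM in the 7 sgScramble mice and 1.44 to 2.98 CPM in the 5 sgOgfod1 mice, so the guide and its label matched in every footprint library. In RNA the guides differed under vehicle without overlap (19.7 to 24.9 against 8.57 to 11.7 CPM), while the treated ranges met at their ends. Treated sgScramble replicate 4 and treated sgOgfod1 replicate 3 stood apart from the other RNA libraries on the first principal component, and neither has a footprint library. The 8 leukemia genes listed, among them Hoxa9, Meis1 and Myb, were above 0 in all 23 RNA libraries. So were the 15 neutrophil genes listed, and being above 0 does not set leukemic cells apart from normal myeloid ones. Markers of other cells moved with treatment. The summed RNA level of 15 neutrophil genes was 7327 to 18250 CPM in vehicle and 17750 to 87250 CPM in treated mice. That of 17 tissue macrophage genes was 710 to 1269 CPM in vehicle mice and reached 4102, 6789 and 4401 CPM in treated sgScramble replicates 6, 4 and 7, against 1003 to 2522 CPM in the other treated mice. Endothelium also carries Cd34 and Cd93. Of its 8 listed genes 6 (Cdh5, Emcn, Kdr, Tie1, Esam and Eng) stayed at or below 2.35 CPM in every RNA library, while Egfl7 had a median of 5.87 CPM and Pecam1, which myeloid cells carry too, one of 86.0 CPM. The sort thus held cells with myeloid differentiation genes at levels that differed between groups. In such bulk samples, fewer cells of a type and less RNA per cell cannot be told apart.

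Under vehicle the 9 genes were expressed at very different levels. Per kilobase of exon, the median RNA level in vehicle sgScramble mice was highest for Csf2ra, at 150 CPM per kilobase. Next came Cd34 at 33.7, Csf2rb at 28.5, Kit at 26.1, Csf3r at 25.5, Csf1r at 22.9 and Cd93 at 22.6 CPM per kilobase. Il3ra, at 4.11, and Flt3, at 1.79 CPM per kilobase, were far below. The 6 genes from Cd34 to Cd93 had overlapping ranges between neighbours in this order, whereas Csf2ra stood clear of the rest, with 139 CPM per kilobase in its lowest library against 38.9 for the highest of Cd34. Footprints per kilobase of coding sequence gave another order. Csf2ra led again, at a median of 95.7 CPM per kilobase, followed by Cd93 at 64.6, Cd34 at 39.2, Kit at 26.3, Csf2rb at 19.5, Il3ra at 17.8, Csf1r at 16.6, Csf3r at 7.00 and Flt3 at 1.21. Of neighbours in this order only Csf2rb, Il3ra and Csf1r had overlapping ranges. The low RNA level of Il3ra was thus not matched by a low footprint level.

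With treatment Kit, Cd34 and Cd93 fell in both assays and both genotypes, by 2.50- to 18.6-fold. The chains of the GM-CSF receptor did not fall in any of them, and Csf2ra and Csf2rb each rose once. In RNA of sgScramble cells 3 of 9 genes fell (Kit, Cd34, Cd93) and 0 rose (edgeR quasi-likelihood, Benjamini-Hochberg adjusted p under 0.05), where 4.34% of all 21474 genes tested fell and 8.6% rose (12.9% together). There 6 of 9 had an unadjusted p under 0.05, DESeq2 called 4 and limma voom 7. In RNA of sgOgfod1 cells 5 fell (Kit, Flt3, Cd34, Cd93, Csf1r) and Csf2ra rose, where 4.18% of all genes fell and 5.69% rose (9.87% together). In footprints of sgScramble cells 6 of 9 fell (Kit, Cd34, Cd93, Csf1r, Csf3r, Il3ra) and 0 rose, where 7.44% of 18290 genes fell and 8.12% rose (15.6% together). There 8 of 9 had an unadjusted p under 0.05, DESeq2 called 6 and limma voom 7. In footprints of sgOgfod1 cells 5 fell (Kit, Cd34, Cd93, Csf1r, Il3ra) and Csf2rb rose, where 3.56% of all genes fell and 4.65% rose (8.22% together). The median log2 fold change of the 9 genes was -0.50 and -1.37 in RNA and -1.40 and -1.32 in footprints, in sgScramble and sgOgfod1 cells in that order, and the median of all genes was within 0.02 of 0 in each. The 2 treatment contrasts of an assay share no library, but they come from 1 fit with a shared estimate of spread and are not fully independent. The plot of treatment effects by gene shows both assays side by side.

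**Figure D1:**
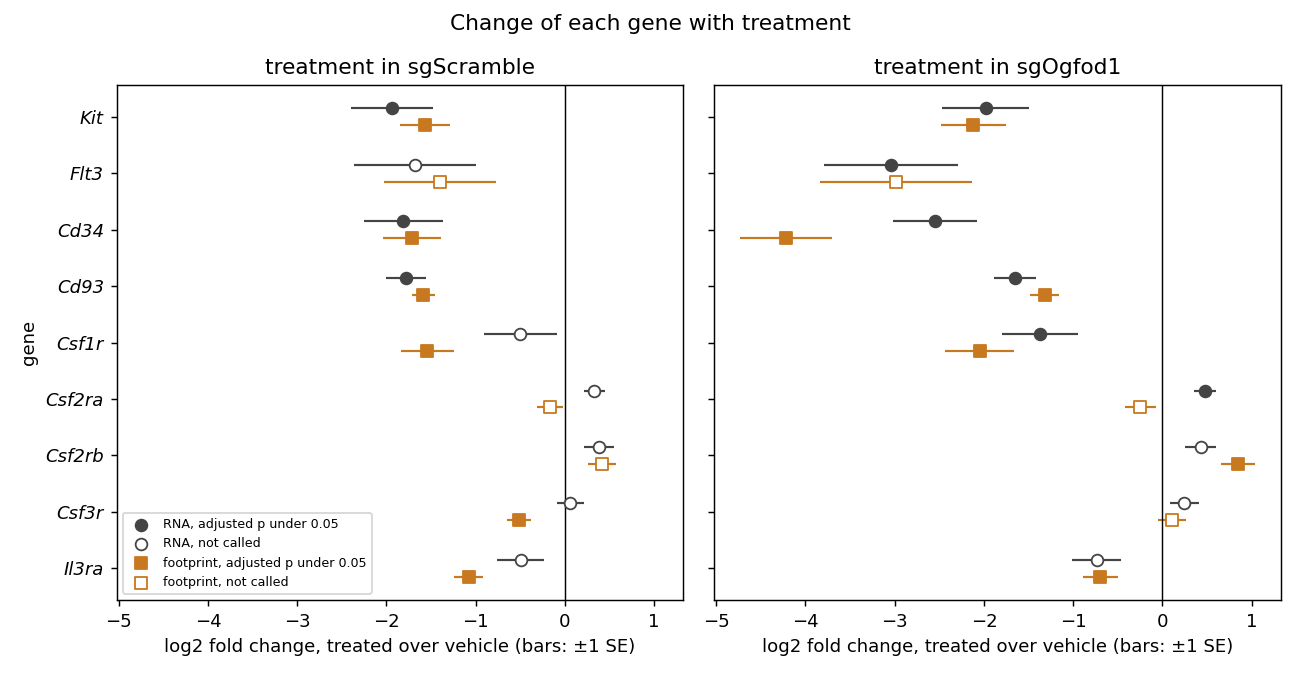
Log2 fold change of treated over vehicle mice for the 9 genes (horizontal axis; bars are 1 standard error) in sgScramble cells on the left and sgOgfod1 cells on the right. Circles are RNA, squares are footprints, and filled symbols passed the adjusted p threshold of 0.05. Kit, Cd34 and Cd93 lie left of 0 and are filled in all 4 cases, and the largest value is Cd34 in footprints of sgOgfod1 cells, at -4.22.

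Kit (ENSMUSG00000005672, GRCm38 chromosome 5, 75574916 to 75656722, plus strand) is the SCF receptor. Its RNA was 211, 232, 204, 259 and 278 CPM in vehicle sgScramble replicates 1 to 5, and in the 7 treated sgScramble mice it had a lowest value of 3.26, a median of 61.5 and a highest of 132 CPM. In sgOgfod1 mice it was 151, 210, 142, 233 and 167 CPM under vehicle, and a lowest of 26.1, a median of 42.2 and a highest of 84.0 CPM under treatment. Every treated mouse lay below every vehicle mouse of its genotype. All treated RNA libraries fell below all vehicle libraries for 6.35% of genes in sgScramble and 5.17% in sgOgfod1 mice. Kit fell by 1.94 ± 0.46 (standard error, SE) on the log2 scale in sgScramble RNA (edgeR quasi-likelihood, adjusted p = 0.00704) and by 1.98 ± 0.48 in sgOgfod1 RNA (adjusted p = 0.0108). Without the pair of RNA libraries that stood apart the values were -1.72 (adjusted p = 0.000787) and -1.86 (adjusted p = 0.000769). Footprints on Kit were 73.1, 77.1 and 92.1 CPM in vehicle sgScramble mice, and 40.9, 27.2, 21.3 and 18.9 CPM in treated ones. They were 49.4, 90.1 and 55.2 CPM in vehicle sgOgfod1 mice, and 16.4 and 13.3 CPM in treated ones. Treated footprint libraries lay below all vehicle libraries in both genotypes, as for 16.1% of genes in sgScramble and 19.1% in sgOgfod1 mice. The falls were 1.57 ± 0.28 (adjusted p = 0.00524) and 2.12 ± 0.36 (adjusted p = 0.00829) on the log2 scale. The sgOgfod1 footprint call rests on 2 treated mice and was lost without replicate 5 of them (-1.97, adjusted p = 0.0688).

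Within treated sgScramble mice Kit RNA ran from 3.26 to 132 CPM, and its 3 lowest values belonged to replicates 4, 7 and 6, which were the 3 highest in tissue macrophage genes. Without these 3 libraries Kit still fell, with a log2 fold change of -1.39 (adjusted p = 0.00359). Mast cells also carry Kit. The summed RNA of 9 listed mast cell and basophil genes was 1053 CPM in vehicle sgOgfod1 replicate 4, where Kit was highest of its group. It was 125 to 444 CPM in the other 22 libraries. The part of these cells in the Kit level of replicate 4 was not tested. The library numbers in the labels run from 1 to 25, with vehicle mice below 11. Whether they follow time or a batch was not given, and later library numbers here means higher ones. A term for numbers of 17 and above, which sets the higher-numbered treated libraries apart, left Kit at -1.51 in sgScramble RNA (adjusted p = 0.0809), -1.54 in sgOgfod1 RNA (adjusted p = 0.0831) and -1.36 in sgOgfod1 footprints (adjusted p = 0.203). In sgOgfod1 footprints both treated libraries, and no vehicle library, have such numbers, so the term and treatment can hardly be told apart there.

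**Figure D2:**
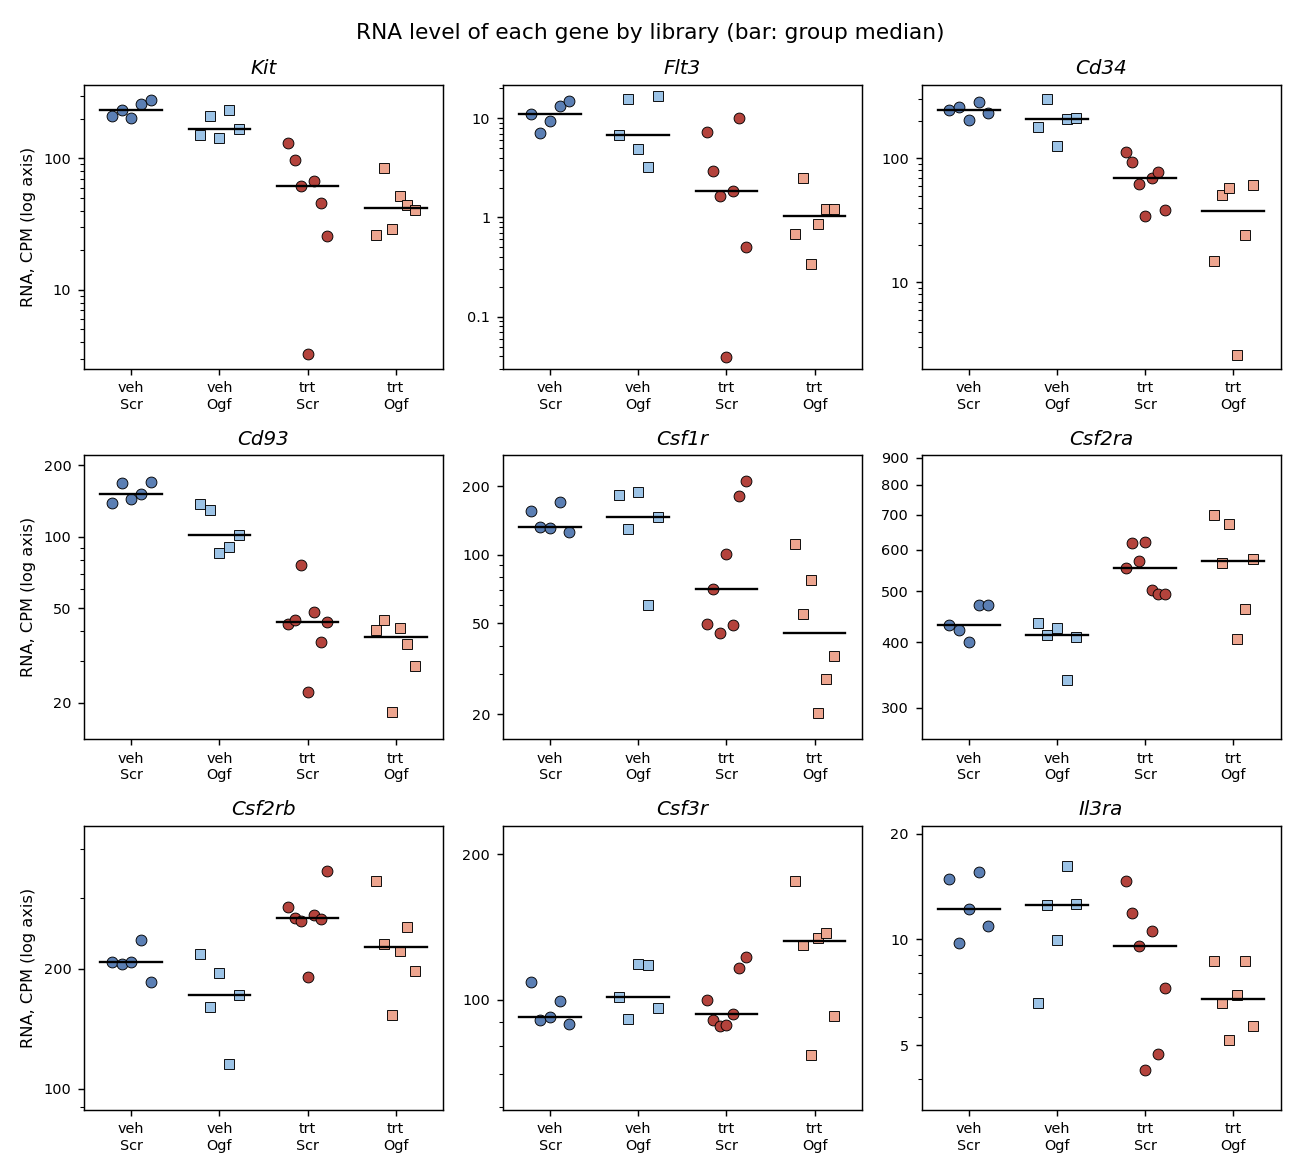
RNA level (CPM, log axis, a separate scale for each gene) of the 9 genes in every library. Groups from left to right are both vehicle groups (sgScramble, then sgOgfod1) and both treated groups in the same order; points are mice in the order of their replicate numbers, and bars are group medians. Kit, Cd34 and Cd93 separate treated from vehicle mice in both genotypes, Csf1r splits treated sgScramble mice into values from 45.6 to 210 CPM, and treated sgScramble replicate 4 lies at 3.26 CPM for Kit and 0.0388 CPM for Flt3.

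Flt3 (ENSMUSG00000042817, chromosome 5, 147330741 to 147400489, minus strand), the Flt3 ligand receptor, was the least abundant of the 9. Its RNA was 11.1, 7.14, 9.35, 13.3 and 14.8 CPM in vehicle sgScramble mice, with a lowest value of 0.0388, a median of 1.84 and a highest of 10.0 CPM in treated ones. In sgOgfod1 mice it was 6.85, 15.5, 4.94, 3.26 and 16.7 CPM under vehicle, with a lowest of 0.343, a median of 1.03 and a highest of 2.52 CPM under treatment. All 6 treated sgOgfod1 mice lay below the vehicle range, while in sgScramble mice replicates 1 and 6 lay inside it. Flt3 fell by 3.04 ± 0.75 on the log2 scale in sgOgfod1 RNA (edgeR quasi-likelihood, adjusted p = 0.0116). In sgScramble RNA the value was -1.68 ± 0.68 and missed the threshold (adjusted p = 0.11); without treated replicate 6 it was -2.22 (adjusted p = 0.0395), with DESeq2 -1.71 (adjusted p = 0.0466) and with limma voom -2.01 (adjusted p = 0.00242). Footprints on Flt3 in sgScramble mice were 1.99, 3.62 and 4.66 CPM under vehicle, against 3.05, 0.834, 0.442 and 0.543 CPM under treatment. In sgOgfod1 mice they were 3.10, 2.15 and 7.47 CPM under vehicle, against 0.602 and 0.515 CPM under treatment. These treated values rest on 3 to 28 counts, and neither footprint difference passed (log2 -1.40, adjusted p = 0.159, and -2.99, adjusted p = 0.0568). Without treated sgScramble replicate 1, the highest, both did (-2.44, adjusted p = 0.0115, and -2.98, adjusted p = 0.0101). Both passed as well without a filter on low counts (-1.40, adjusted p = 0.0163, and -3.0, adjusted p = 6.32e-05). The sgOgfod1 footprint value also passed with DESeq2 (adjusted p = 0.0052) and without vehicle sgOgfod1 replicate 4 (-3.26, adjusted p = 0.0408), and the sgOgfod1 RNA call was lost with the term for later library numbers (-2.79, adjusted p = 0.0513) and in the mice with a footprint library alone (-3.0, adjusted p = 0.0806). The gene Gm26597 overlaps Flt3, and without strand their RNA reads cannot be told apart.

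Cd34 (ENSMUSG00000016494, chromosome 1, 194938819 to 194961279, plus strand) showed the largest fall of the set in footprints of both genotypes. RNA was 246, 261, 204, 283 and 235 CPM in vehicle sgScramble mice, with a lowest of 34.5, a median of 69.9 and a highest of 112 CPM in treated ones. In sgOgfod1 mice it was 180, 302, 126, 210 and 214 CPM under vehicle and 14.9, 51.1, 58.1, 2.61, 23.9 and 60.9 CPM in treated replicates 1 to 6. Treated mice lay below all vehicle mice of their genotype, and replicate 4 of the treated sgOgfod1 group was far below its group. Cd34 fell by 1.81 ± 0.44 on the log2 scale in sgScramble RNA (edgeR quasi-likelihood, adjusted p = 0.00825) and by 2.55 ± 0.47 in sgOgfod1 RNA (adjusted p = 0.0014). Without the pair of libraries standing apart these were -1.69 (adjusted p = 0.0139) and -2.73 (adjusted p = 0.00104). Without the 3 libraries highest in macrophage genes the sgScramble RNA call was lost (-1.52, adjusted p = 0.0814), as it was in the mice with a footprint library alone (-1.47, adjusted p = 0.107) and with the term for later library numbers (-1.38, adjusted p = 0.117). Over the mice with footprints the sgOgfod1 RNA value was -3.78 (adjusted p = 0.0177).

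Footprints on Cd34 were 44.9, 42.1 and 50.3 CPM in vehicle sgScramble mice and 20.0, 15.0, 9.42 and 10.7 CPM in treated ones. They were 27.4, 42 and 44.8 CPM in vehicle sgOgfod1 mice and 0.702 and 3.40 CPM in treated replicates 4 and 5, on 7 and 33 counts. The fall was 1.71 ± 0.32 on the log2 scale in sgScramble (edgeR quasi-likelihood, adjusted p = 0.00739) and 4.22 ± 0.52 in sgOgfod1 footprints (adjusted p = 0.00248). Treated sgOgfod1 mice had lower Cd34 footprints than all 4 treated sgScramble mice, and this difference passed the test, at -2.77 ± 0.52 (adjusted p = 0.0319; lower in 2 of 2 mice), where 0.99% of all genes were lower in that contrast. The mouse with the least Cd34 weighed heavily on these values. Without replicate 4 the treatment value was -3.48 (adjusted p = 0.00401) and the genotype value -2.03, no longer a call (adjusted p = 0.0887), and without replicate 5 they were -5.73 (adjusted p = 0.000805) and -4.29 (adjusted p = 0.0078). The genotype call was also lost on leaving out any vehicle sgScramble mouse (adjusted p = 0.0585, 0.0531 and 0.0579) or treated sgScramble replicate 2 (adjusted p = 0.0853), while its value stayed between -2.78 and -2.74. With limma voom it was -3.07 (adjusted p = 0.176), without a filter on low counts -2.77 (adjusted p = 0.0528), with both treated groups alone -2.76 (adjusted p = 0.129) and with the term for later library numbers -2.30 (adjusted p = 0.106). The treatment call in sgOgfod1 footprints was lost with that term (-3.42, adjusted p = 0.0942) and with the 2 groups alone (-4.20, adjusted p = 0.0585). The test of whether treatment acted differently in the genotypes gave -2.50 ± 0.62 and did not pass (adjusted p = 0.298), except without treated sgOgfod1 replicate 5 (-4.02, adjusted p = 0.0462). In RNA the Cd34 difference between treated genotypes was -0.99 ± 0.43 over all 13 treated mice (adjusted p = 0.326) and -2.66 in the 6 with a footprint library (adjusted p = 0.063), and -1.98 over all with limma voom (adjusted p = 0.0568). Its translation efficiency, footprints relative to RNA of the same mice, differed by 0.08 ± 0.26 (adjusted p = 1). The gene Gm16897 overlaps Cd34 and shares its RNA reads where strand is not kept.

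**Figure D3:**
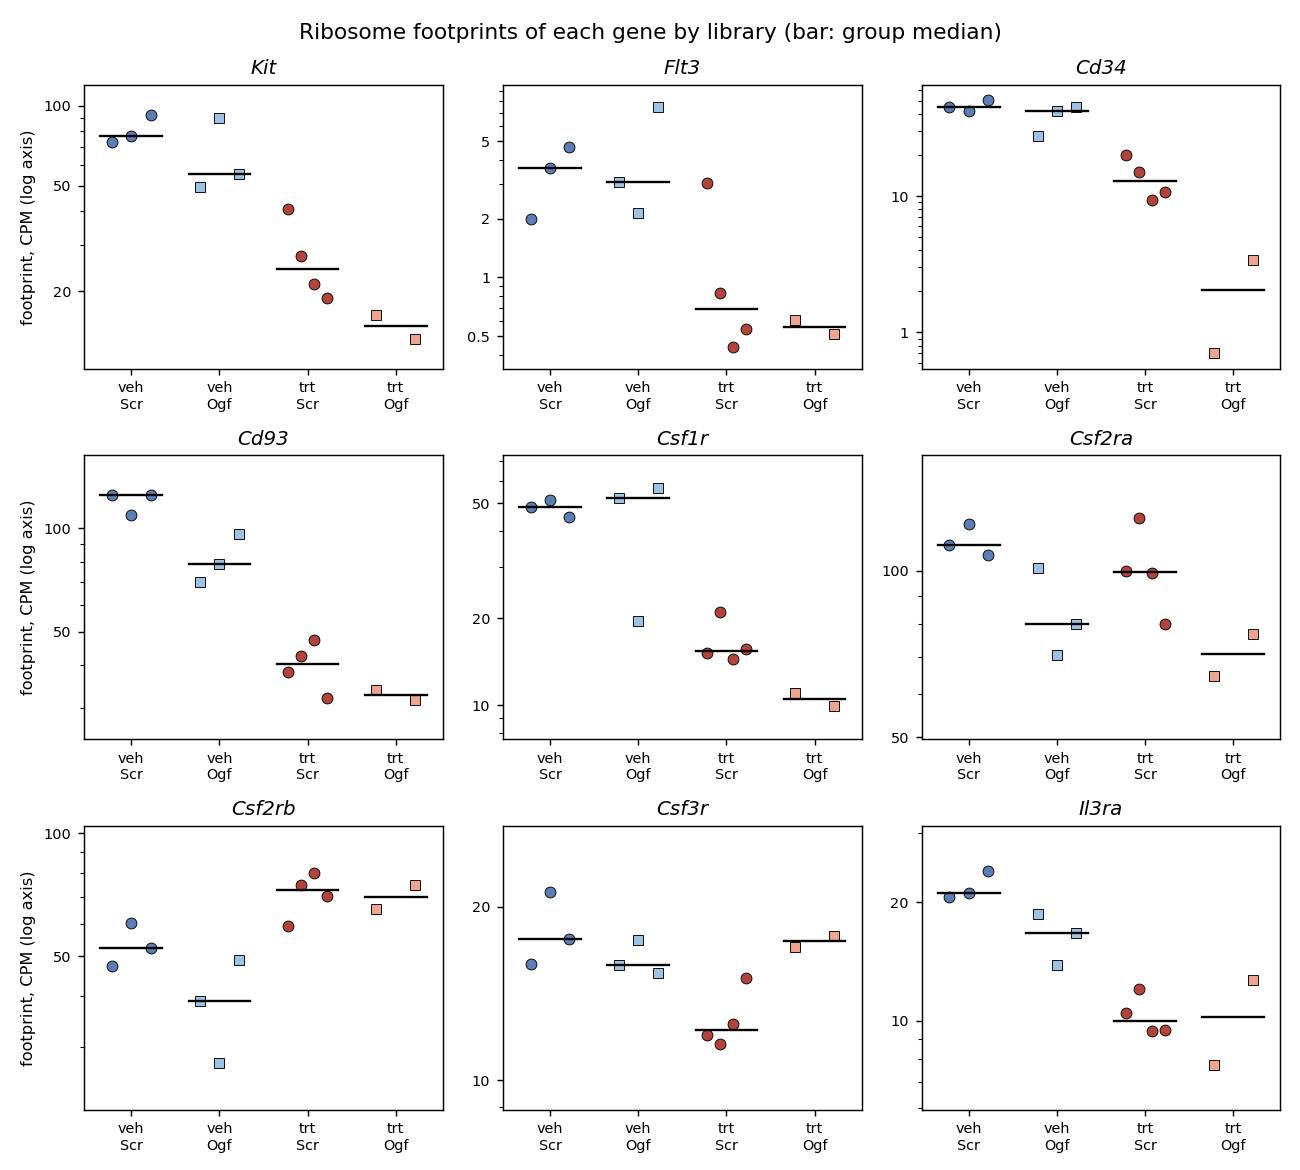
Ribosome footprints (CPM, log axis, a separate scale for each gene) of the 9 genes in the 12 mice with a footprint library, arranged as in the plot of RNA levels, with bars at group medians. The treated sgOgfod1 mice lie at 0.702 and 3.40 CPM for Cd34, below the 4 treated sgScramble mice, and Csf2rb is the gene whose treated sgOgfod1 mice lie above their vehicle group.

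Cd93 (ENSMUSG00000027435, chromosome 2, 148436640 to 148443563, minus strand) gave the most even fall. RNA was 138, 168, 145, 151 and 169 CPM in vehicle sgScramble mice, and a lowest of 22.2, a median of 43.9 and a highest of 75.9 CPM in treated ones. In sgOgfod1 mice it was 137, 130, 85.8, 90.2 and 102 CPM under vehicle, and a lowest of 18.2, a median of 38 and a highest of 44.4 CPM under treatment. Treated and vehicle mice did not overlap in either genotype. Cd93 fell by 1.78 ± 0.22 on the log2 scale in sgScramble (edgeR quasi-likelihood, adjusted p = 3.1e-05) and by 1.65 ± 0.23 in sgOgfod1 RNA (adjusted p = 0.000138), and by 1.59 ± 0.13 (adjusted p = 9.3e-06) and 1.32 ± 0.16 (adjusted p = 0.000348) in footprints. Without the pair of libraries standing apart the RNA values were -1.66 (adjusted p = 1.95e-06) and -1.51 (adjusted p = 9.8e-06). Of the alternatives run, only the term for later library numbers ended a Cd93 call, in sgOgfod1 footprints (-1.30, adjusted p = 0.0812).

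Cd93 footprints of vehicle mice were 125, 110 and 125 CPM with sgScramble, against 69.6, 78.5 and 96.5 CPM with sgOgfod1, and 38.1, 42.4, 47.2 and 32 CPM and 33.8 and 31.6 CPM in the treated groups. Under vehicle all sgOgfod1 mice lay below all sgScramble mice in both assays, 5 against 5 in RNA and 3 against 3 in footprints. Csf2ra and Il3ra footprints were split in the same way. The share of all genes split so between vehicle genotypes was not computed. The genotype difference was -0.50 ± 0.24 in RNA (adjusted p = 1; 0.0442 with limma voom and 0.0406 with the 2 groups alone) and -0.55 ± 0.14 in footprints, just short of the threshold (edgeR quasi-likelihood, adjusted p = 0.0514). DESeq2 (-0.55, adjusted p = 0.0159) and limma voom (-0.52, adjusted p = 0.0239) called the footprint difference, as did edgeR without vehicle sgOgfod1 replicate 5 (-0.70, adjusted p = 0.0267), treated sgScramble replicate 5 (adjusted p = 0.032), or either treated sgOgfod1 mouse (adjusted p = 0.0381 and 0.038). The 2 groups alone (adjusted p = 0.0306), protein-coding genes alone (adjusted p = 0.0363) and no filter on low counts (adjusted p = 0.00137) gave the call too.

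The bases before the start sites of these genes are shown from the RefSeq promoter table (GRCm38.p6) for Kit, Flt3 and Cd34, and for Csf2ra, which did not fall. Capitals mark the core of the binding motif of PU.1, the myeloid transcription factor made by Spi1, whose own RNA rose with treatment by a log2 value of 0.89 ± 0.23 in sgScramble (edgeR quasi-likelihood, adjusted p = 0.0115) and 0.82 ± 0.23 in sgOgfod1 cells (adjusted p = 0.028). The core searched for was GAGGAA on both strands over 250 bases before the RefSeq start; 23.1% of 27025 mouse promoters hold it. The Kit sequence stops where the GENCODE gene begins, 71 bases short of the RefSeq start.
Kit, chr5:75574737-75574915, plus strand: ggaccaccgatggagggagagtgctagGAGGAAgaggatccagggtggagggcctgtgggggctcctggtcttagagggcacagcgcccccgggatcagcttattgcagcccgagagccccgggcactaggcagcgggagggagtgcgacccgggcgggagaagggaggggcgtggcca
Flt3, chr5:147400490-147400739, minus strand: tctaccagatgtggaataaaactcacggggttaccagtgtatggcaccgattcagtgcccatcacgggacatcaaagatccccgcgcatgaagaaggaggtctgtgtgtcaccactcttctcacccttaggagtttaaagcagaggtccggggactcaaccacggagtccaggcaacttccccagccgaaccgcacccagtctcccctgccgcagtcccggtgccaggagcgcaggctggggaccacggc
Cd34, chr1:194938571-194938820, plus strand: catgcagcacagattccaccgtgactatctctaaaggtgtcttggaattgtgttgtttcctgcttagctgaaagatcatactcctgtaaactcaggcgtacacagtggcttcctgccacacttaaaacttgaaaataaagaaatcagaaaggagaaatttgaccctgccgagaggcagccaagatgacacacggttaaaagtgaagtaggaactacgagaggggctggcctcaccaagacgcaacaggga
Csf2ra, chr19:61228419-61228668, minus strand: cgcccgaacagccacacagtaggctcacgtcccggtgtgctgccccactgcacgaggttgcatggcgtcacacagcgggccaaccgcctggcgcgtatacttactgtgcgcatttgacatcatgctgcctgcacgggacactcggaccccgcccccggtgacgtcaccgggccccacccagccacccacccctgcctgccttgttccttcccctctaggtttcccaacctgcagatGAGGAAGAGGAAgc
Kit held 1 match, 223 bases before the RefSeq start, and Csf2ra held 2 adjacent ones, at 14 and 8 bases before it. Flt3 and Cd34 held none in this window. Csf3r held 1 as well, 86 bases before its RefSeq start. The GENCODE genes take in the last 11 bases of the Csf2ra window and the last 109 of the Csf3r window. The Csf2ra match at 8 bases and the Csf3r match thus lie inside those genes, and the Csf2ra match at 14 bases spans the gene boundary. The RUNX core TGTGGT, present in 14.2% of promoters, was in none of the windows of Kit, Flt3, Cd34, Csf2ra, Csf3r and Il3ra. These matches describe the letters only.

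Csf1r (ENSMUSG00000024621, chromosome 18, 61100598 to 61132149, plus strand), the receptor of monocytes and macrophages, fell in footprints of both genotypes and in RNA of sgOgfod1 cells. Footprints were 48.6, 51.5 and 44.9 CPM in vehicle sgScramble mice and 15.1, 21.0, 14.4 and 15.6 CPM in treated ones. They were 52.0, 19.5 and 56.4 CPM in vehicle sgOgfod1 mice and 11.0 and 9.89 CPM in treated ones. Treated mice were below all vehicle mice of their genotype, as in 16.1% of genes in sgScramble and 19.1% in sgOgfod1 mice. Vehicle sgOgfod1 replicate 4 lay inside the treated sgScramble range. The falls were 1.54 ± 0.30 (edgeR quasi-likelihood, adjusted p = 0.00771) and 2.05 ± 0.39 (adjusted p = 0.012) on the log2 scale. With the term for later library numbers neither passed (-1.42, adjusted p = 0.0569, and -1.78, adjusted p = 0.256), and the sgOgfod1 call was also lost without treated replicate 4 (-2.13, adjusted p = 0.0681) or 5 (-1.97, adjusted p = 0.0873) and with the 2 groups alone (-2.02, adjusted p = 0.151). Between treated genotypes Csf1r footprints differed by -0.66 ± 0.37, short of the threshold, and passed on leaving out vehicle sgOgfod1 replicate 4 (-0.66, adjusted p = 0.0343).

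Csf1r RNA was 156, 132, 131, 170 and 126 CPM in vehicle sgScramble replicates 1 to 5. In treated sgScramble replicates 1 to 7 it was 49.8, 70.6, 45.6, 101, 49.4, 182 and 210 CPM. Replicates 1, 2, 3 and 5, which are the mice with footprints, lay below the vehicle range, and so did replicate 4, while replicates 6 and 7 lay above it. The log2 fold change over all 7 was -0.50 ± 0.41 and did not pass (edgeR quasi-likelihood, adjusted p = 0.469). Replicates 4, 6 and 7 had 4102 to 6789 CPM of summed macrophage genes against 1041 to 1502 CPM in the others. Vcam1, Slc40a1 and Adgre1 had medians of 424, 343 and 288 CPM over 23 RNA libraries. No other gene of that list had a median above 23.9 CPM, so in a library near these medians the sum says little of the rest. This does not hold for treated sgScramble replicate 4. The highest values of Vcam1, Slc40a1 and Adgre1 in any RNA library together fall short of its 6789 CPM, so other genes of the list added to the sum there. In sgScramble footprints, from replicates 1, 2, 3 and 5 under treatment, 10 of 14 macrophage genes tested rose (median log2 2.76). Without replicates 4, 6 and 7 Csf1r RNA fell, with a value of -1.40 (adjusted p = 0.0283), and over the mice with a footprint library it was -1.28 (adjusted p = 0.0192). With limma voom and quality weights it was -1.06 (adjusted p = 0.011).

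In sgOgfod1 mice Csf1r RNA was 184, 130, 189, 60.4 and 147 CPM under vehicle and 112, 55.0, 77.5, 20.2, 28.5 and 36.1 CPM under treatment. All treated mice lay below the vehicle median, and the ranges overlapped through vehicle replicate 4 and treated replicates 1 and 3. The fall was 1.37 ± 0.43 on the log2 scale (edgeR quasi-likelihood, adjusted p = 0.042). This call was lost in 12 of the 23 fits that left out a library: vehicle sgScramble replicates 1, 2, 4 and 5, vehicle sgOgfod1 replicates 1, 2, 3 and 5, and treated sgOgfod1 replicates 2, 4, 5 and 6, with values from -1.40 to -1.20 and adjusted p from 0.0519 to 0.0995. It was also lost without a filter on low counts (-1.37, adjusted p = 0.123) and with the term for later library numbers (-1.25, adjusted p = 0.1). Over the mice with footprints the value was -2.45 (adjusted p = 0.0068). The difference in treatment effect between the genotypes was -0.87 ± 0.59 (adjusted p = 1). The gene Hmgxb3 overlaps Csf1r.

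**Figure D4:**
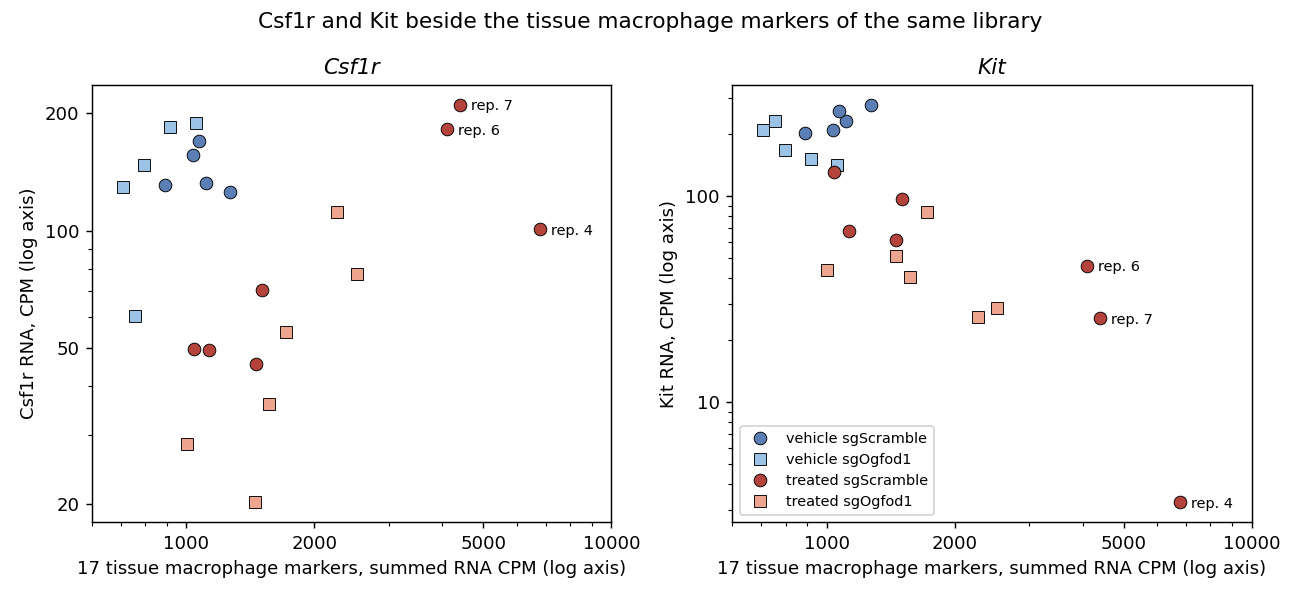
RNA level of Csf1r (left) and Kit (right), in CPM on log axes, against the summed CPM of 17 tissue macrophage genes in the same library, for 23 RNA libraries coloured by group. Treated sgScramble replicates 4, 6 and 7 lie at 4102 to 6789 CPM on the horizontal axis; among treated sgScramble mice they have the 3 highest Csf1r and the 3 lowest Kit values.

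The chains of the GM-CSF and interleukin 3 receptors moved differently from one another. Csf2ra (ENSMUSG00000059326, chromosome 19, 61223957 to 61228429, minus strand), which binds GM-CSF, had RNA of 431, 422, 400, 471 and 471 CPM in vehicle sgScramble mice and a lowest of 494, a median of 554 and a highest of 622 CPM in treated ones. All 7 treated mice lay above all vehicle mice, as in 5.94% of genes tested. The log2 fold change was 0.33 ± 0.12 and missed the threshold (edgeR quasi-likelihood, adjusted p = 0.0752). It passed without treated sgOgfod1 replicate 4 (0.33, adjusted p = 0.0457), with the 2 groups alone (0.33, adjusted p = 0.0419), with the term for later library numbers (0.53, adjusted p = 0.0155) and with limma voom (0.35, adjusted p = 0.00375). In sgOgfod1 mice Csf2ra was 436, 413, 425, 339 and 408 CPM under vehicle and a lowest of 405, a median of 571 and a highest of 699 CPM under treatment. The rise was 0.48 ± 0.12 (log2; adjusted p = 0.0159; above the vehicle median in 5 of 6 mice). The call was lost without vehicle sgOgfod1 replicate 4 (0.42, adjusted p = 0.0582), with the 2 groups alone (0.49, adjusted p = 0.052) and in the mice with footprints (0.14, adjusted p = 0.652).

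Csf2ra footprints showed no call in either direction. In sgScramble mice they were 111, 121 and 107 CPM under vehicle, against 99.8, 124, 99.1 and 80.0 CPM under treatment. In sgOgfod1 mice they were 101, 70.4 and 80.2 CPM, against 64.5 and 77.0 CPM. The treatment values were -0.17 ± 0.14 (edgeR quasi-likelihood, adjusted p = 0.451) and -0.25 ± 0.17 (adjusted p = 0.426). The groups overlapped in both genotypes. Footprints of sgOgfod1 mice were below those of sgScramble mice under vehicle (log2 -0.43 ± 0.15, adjusted p = 0.155) and under treatment (-0.51 ± 0.16, adjusted p = 0.139), in 3 of 3 and 2 of 2 mice, without passing the test. Without a filter on low counts both passed (adjusted p = 0.0272 and 0.0157).

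Csf2rb (ENSMUSG00000071713, chromosome 15, 78325752 to 78353847, plus strand), the shared beta chain, was the gene of the set whose footprints rose. They were 38.8, 27.4 and 49.1 CPM in vehicle sgOgfod1 mice and 65.3 and 74.5 CPM in treated ones, a rise of 0.84 ± 0.19 on the log2 scale (edgeR quasi-likelihood, adjusted p = 0.014). The 2 treated mice lay above the 3 vehicle mice, as in 17.6% of genes tested there. The call was lost without treated replicate 5 (0.75, adjusted p = 0.0911), with the 2 groups alone (0.87, adjusted p = 0.0963), with the term for later library numbers (0.68, adjusted p = 0.347) and with limma voom (0.74, adjusted p = 0.0548). In sgScramble mice footprints were 47.3, 60.2 and 52.4 CPM under vehicle and 59.3, 74.7, 80.1 and 70.1 CPM under treatment, with overlap in 1 treated mouse, and the value was 0.42 ± 0.16 (adjusted p = 0.0934). It passed without vehicle sgOgfod1 replicate 4 (0.42, adjusted p = 0.03), with the 2 groups alone (0.42, adjusted p = 0.0188), without a filter on low counts (0.40, adjusted p = 0.0206) and with limma voom (0.43, adjusted p = 0.0411).

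Csf2rb RNA was 208, 205, 207, 236 and 185 CPM in vehicle sgScramble mice, with a lowest of 190, a median of 268 and a highest of 351 CPM in treated ones. With sgOgfod1 it was 217, 160, 195, 115 and 171 CPM under vehicle, with a lowest of 153, a median of 226 and a highest of 332 CPM under treatment. The ranges overlapped, and the values of 0.38 ± 0.17 (edgeR quasi-likelihood, adjusted p = 0.144) and 0.43 ± 0.17 (adjusted p = 0.116) missed the threshold. Without the pair of libraries standing apart, whose Csf2rb was lowest in their groups, both passed (0.45, adjusted p = 0.0264, and 0.54, adjusted p = 0.0125). Leaving out treated sgOgfod1 replicate 3 alone also gave a call in sgOgfod1 cells (0.54, adjusted p = 0.0436), and limma voom gave one in both (0.40, adjusted p = 0.00887, and 0.45, adjusted p = 0.0241).

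Csf2rb lies beside its near copy Csf2rb2 (ENSMUSG00000071714, chromosome 15, 78282507 to 78305721, minus strand). Their GENCODE coding sequences were 95.2% identical over 2631 aligned bases, with a longest identical run of 242 bases, so the short footprints may be assigned to either gene. Of the 28-base words of the Csf2rb coding sequence, 43.3% also occur in Csf2rb2. The stretch of 60 bases where they differ most shows how reads can tell the copies apart. Capitals mark the 13 bases that differ, 5' to 3' on the coding strand, from coding base 304 of Csf2rb and 307 of Csf2rb2.
Csf2rb: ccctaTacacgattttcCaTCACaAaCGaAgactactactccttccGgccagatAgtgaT
Csf2rb2: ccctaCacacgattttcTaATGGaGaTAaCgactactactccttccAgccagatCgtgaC
Csf2rb2 took 7.78 to 20.6% of the counts of both genes in RNA (median 13.0%, 23 libraries) and 36.4 to 40.1% in footprints (median 38.7%, 12 libraries). Its RNA was 25.8 to 32.6 CPM in vehicle and 18.5 to 68.2 CPM in treated sgScramble mice. In footprints of sgOgfod1 cells it rose along with Csf2rb, from 24.3, 15.7 and 31 CPM to 43 and 43.9 CPM (log2 0.85 ± 0.21, edgeR quasi-likelihood, adjusted p = 0.025). With both genes summed the footprint change was 0.86 in sgOgfod1 (adjusted p = 0.0195) and 0.45 in sgScramble cells (adjusted p = 0.0904). The sum does not depend on how the counted reads were split between the copies. It cannot show which copy changed, and reads matching both copies may not have been counted.

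Il3ra (ENSMUSG00000068758, chromosome 14, 14346275 to 14356011, plus strand), which binds interleukin 3, fell in footprints and not detectably in RNA. Footprints of sgScramble mice were 20.6, 21.1 and 24.1 CPM under vehicle, against 10.4, 12.0, 9.42 and 9.49 CPM under treatment. In sgOgfod1 mice they were 18.7, 13.9 and 16.7 CPM under vehicle and 7.72 and 12.7 CPM under treatment. Treated mice were below vehicle mice in both genotypes, as in 16.1% and 19.1% of genes. The falls were 1.08 ± 0.16 (edgeR quasi-likelihood, adjusted p = 0.000614) and 0.70 ± 0.20 (adjusted p = 0.0387) on the log2 scale. The second was lost in 6 of 12 fits that left out a library: any vehicle sgScramble mouse, vehicle sgOgfod1 replicate 3 or 5, or treated sgOgfod1 replicate 4, the lowest, without which it was -0.38 (adjusted p = 0.327). The other 5 of these fits gave values from -0.71 to -0.69 and adjusted p from 0.0527 to 0.0882. It was also lost with DESeq2 (-0.68, adjusted p = 0.0507), in protein-coding genes alone (-0.62, adjusted p = 0.0537), with the 2 groups alone (-0.68, adjusted p = 0.177) and with the term for later library numbers (-0.45, adjusted p = 0.572).

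Il3ra RNA was 14.8, 9.77, 12.2, 15.5 and 10.9 CPM in vehicle sgScramble and a lowest of 4.25, a median of 9.55 and a highest of 14.7 CPM in treated sgScramble mice. In sgOgfod1 mice it was 6.60, 12.5, 9.97, 16.2 and 12.6 CPM under vehicle and a lowest of 5.17, a median of 6.76 and a highest of 8.69 CPM under treatment. The values were -0.49 ± 0.26 (edgeR quasi-likelihood, adjusted p = 0.238) and -0.74 ± 0.28 (adjusted p = 0.0922), with overlapping ranges. The second passed without treated sgScramble replicate 4 (-0.72, adjusted p = 0.0417) and without the 3 libraries highest in macrophage genes (-0.72, adjusted p = 0.0156). The sgScramble value in that last fit was -0.11 (adjusted p = 0.887). The gene Gm48860 overlaps Il3ra.

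Csf3r (ENSMUSG00000028859, chromosome 4, 126024550 to 126044440, plus strand), the G-CSF receptor, had no RNA change that passed the test. RNA was 109, 91.0, 91.9, 99.4 and 88.9 CPM in vehicle sgScramble and a lowest of 88.4, a median of 93.4 and a highest of 123 CPM in treated sgScramble mice. It was 101, 91.2, 118, 118 and 96.0 CPM in vehicle sgOgfod1 and a lowest of 76.9, a median of 132 and a highest of 176 CPM in treated sgOgfod1 mice. In sgOgfod1 cells 4 of 6 treated mice lay above all vehicle mice and 1 lay below all. The log2 values were 0.06 ± 0.15 (edgeR quasi-likelihood, adjusted p = 0.859) and 0.25 ± 0.16 (adjusted p = 0.338). Footprints of sgScramble mice were 15.9, 21.2 and 17.6 CPM under vehicle, against 12.0, 11.6, 12.5 and 15.1 CPM under treatment, a fall of 0.51 ± 0.13 (adjusted p = 0.0169). All treated mice lay below all vehicle mice there, as in 16.1% of genes. The fall missed the threshold without vehicle replicate 3, the highest (-0.40, adjusted p = 0.0981). In sgOgfod1 mice footprints were 15.8, 17.5 and 15.4 CPM under vehicle and 17.1 and 17.8 CPM under treatment, with a value of 0.11 ± 0.16 (adjusted p = 0.737). The treatment effects of the genotypes differed by 0.62 ± 0.21 without passing the test (adjusted p = 0.373).

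A processed pseudogene, AC105061.2 (chromosome 19, 60079432 to 60087657, plus strand), shares 32.8% of the 28-base words of the Csf3r coding sequence. It took 20.5 to 33.9% of the footprint counts of both, on 25 to 101 counts a library, against 0.0572 to 0.631% in RNA. With both summed, the sgScramble footprint fall was 0.60 (edgeR quasi-likelihood, adjusted p = 0.0102). Which of the pair these footprints came from was not tested, so the Csf3r footprint level is uncertain, and the direction of its change is the same with both summed. The other 7 genes shared no 28-base word of coding sequence with any other gene.

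Footprints relative to RNA, called translation efficiency, were tested within the 12 mice with both libraries, with the mouse as a block. Of the 9 genes 1 was lower in treated sgScramble cells, Il3ra, where 0.51% of all 28606 genes tested were lower and 0.93% changed in either direction. An unadjusted p under 0.05 was reached by 3 of 9, and DESeq2 called 2. The footprint-to-RNA ratio of Il3ra was 2.11, 1.73 and 2.20 in vehicle sgScramble mice and 0.712, 1.01, 0.987 and 0.901 in treated ones. It was 1.88, 0.856 and 1.33 in vehicle and 1.12 and 1.46 in treated sgOgfod1 mice. The sgScramble groups were apart and the sgOgfod1 groups overlapped. The share of all genes whose ratios part in this way was not computed. The change was -1.13 ± 0.24 in sgScramble (edgeR quasi-likelihood, adjusted p = 0.0283) and 0.12 ± 0.29 in sgOgfod1 cells (adjusted p = 1). The difference between these effects, 1.25 ± 0.38, did not pass (adjusted p = 0.533). The Il3ra call was lost without any vehicle sgScramble mouse (adjusted p = 0.124, 0.0629 and 0.12) or treated sgScramble replicate 1 or 2 (adjusted p = 0.0924 and 0.062), and without the mouse block (-1.12, adjusted p = 0.0824).

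**Figure D5:**
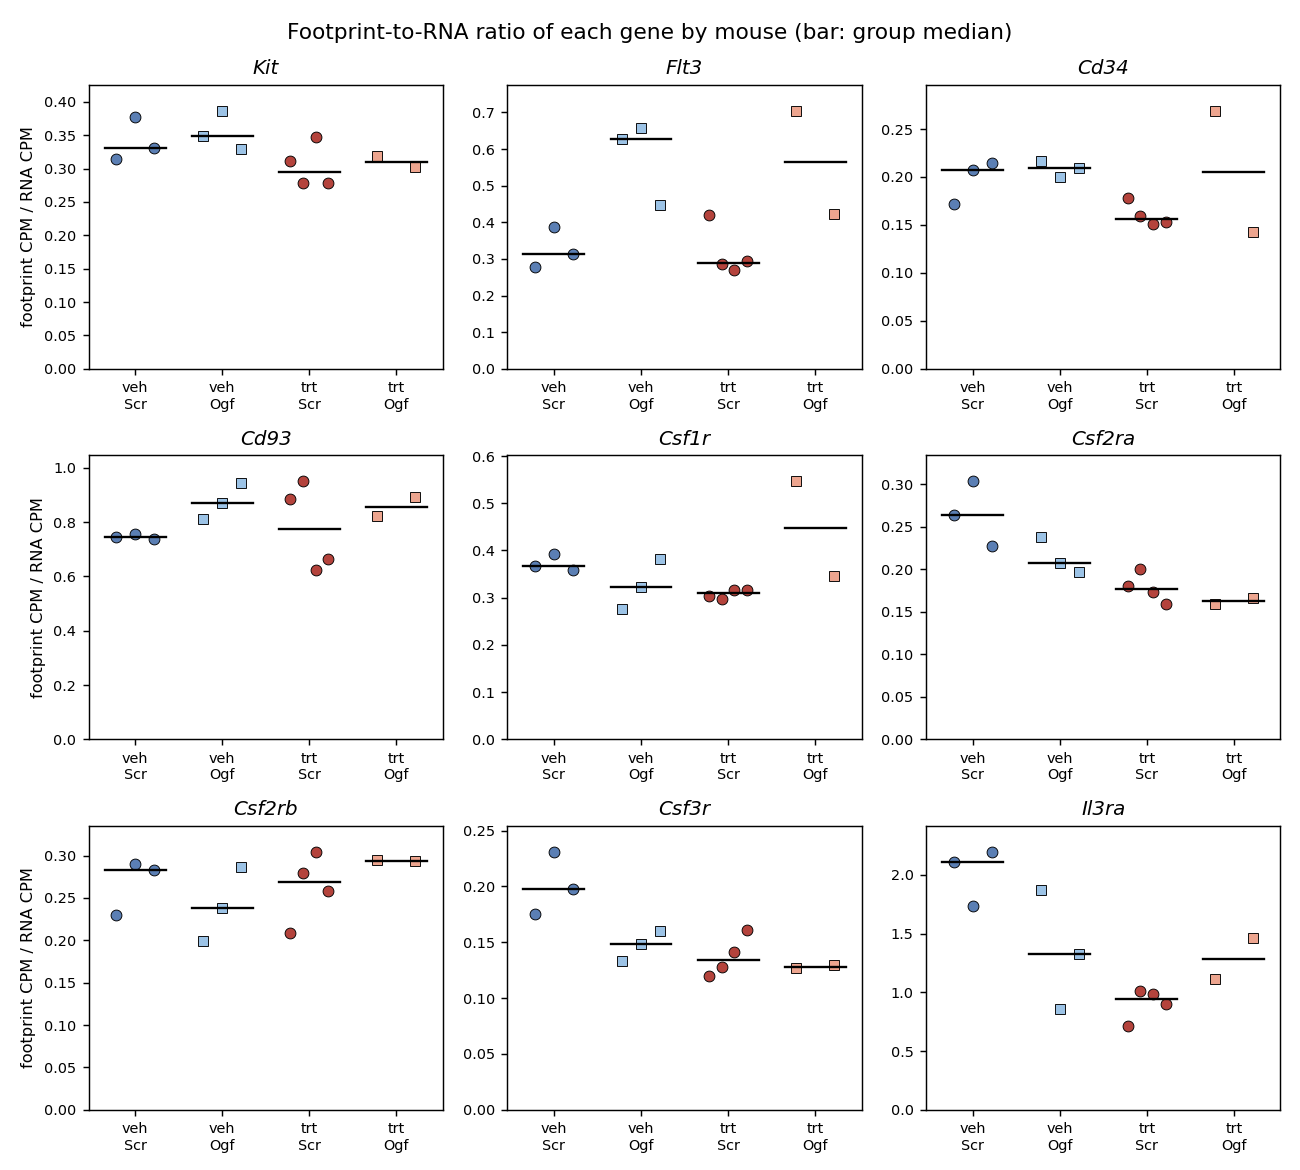
Footprint CPM divided by RNA CPM of the same mouse for the 9 genes (vertical axis from 0, a separate scale for each gene), in groups arranged as in the plot of RNA levels, with bars at group medians. Il3ra has the highest ratios, 1.73 to 2.20 in vehicle sgScramble mice and 0.712 to 1.01 in treated ones, while Csf2ra ratios lie at 0.227 to 0.303 and 0.159 to 0.200 in the same groups.

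The Csf2ra ratio was 0.227 to 0.303 in vehicle sgScramble and 0.159 to 0.200 in treated sgScramble mice, with no overlap. Here too the share of all genes with ratios split so was not computed. Its change in translation efficiency, -0.52 ± 0.13, narrowly missed the threshold (edgeR quasi-likelihood, adjusted p = 0.0608). It passed with DESeq2 (-0.46, adjusted p = 0.006), in protein-coding genes alone (-0.48, adjusted p = 0.00802) and without vehicle sgOgfod1 replicate 5 (-0.52, adjusted p = 0.029). Csf3r had -0.51 ± 0.15 (adjusted p = 0.123), which passed in protein-coding genes alone (-0.47, adjusted p = 0.0486). Kit, Cd34 and Cd93 had values of -0.12 ± 0.12, -0.24 ± 0.14 and 0.09 ± 0.15, none of them past the threshold, so for these genes the RNA and footprint falls differed by less than the test could resolve. In treated sgOgfod1 against vehicle sgOgfod1 cells 0 of 9 genes passed by edgeR and 0 by DESeq2, with 2 at an unadjusted p under 0.05, where 0.0839% of all genes passed.

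The Ogfod1 guide itself changed little that passed a test. In RNA 0 of 9 genes differed between vehicle genotypes by edgeR quasi-likelihood and by DESeq2, 1 did by limma voom, and 1 had an unadjusted p under 0.05, where 0.116% of all genes passed. Between treated genotypes 0 of 9 differed by all 3 tools, with 4 at an unadjusted p under 0.05 (Cd34, Csf1r, Flt3 and Csf3r) and a background of 0.391%. In footprints under vehicle 0 of 9 passed by edgeR, 1 by DESeq2 and 1 by limma voom, with 4 under an unadjusted 0.05 (Cd93, Csf2ra, Csf2rb and Il3ra) and a background of 1.81%. In footprints under treatment 1 of 9 passed by edgeR (Cd34), 1 by DESeq2 and 0 by limma voom, with 4 under an unadjusted 0.05 (Cd34, Csf2ra, Csf3r and Kit) and a background of 1.58%. For translation efficiency 0 of 9 passed by edgeR and by DESeq2 under vehicle (3 at an unadjusted p under 0.05, background 0.0594%) and under treatment (2, background 0.0489%). The interaction of guide and treatment gave 0 calls by edgeR and by DESeq2 in RNA, footprints and translation efficiency, with 0, 2 and 2 genes at an unadjusted p under 0.05 and backgrounds of 0%, 0.0656% and 0%.

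Of 9 listed ligands of these receptors 4 were measurable in RNA, and 2 of them, Csf1 and Kitl, rose in both genotypes. Csf1, the ligand of Csf1r, went from 4.64 ± 0.448 (SD, n = 5) to 23.6 ± 9.66 CPM (n = 7) in sgScramble RNA, a log2 rise of 2.35 ± 0.42 (edgeR quasi-likelihood, adjusted p = 0.000826), and rose by 2.27 ± 0.43 in sgOgfod1 RNA (adjusted p = 0.00169). Its footprints did not pass (0.37, adjusted p = 0.339, and -0.32, adjusted p = 0.617), and its translation efficiency was lower in treated sgScramble cells by 1.60 ± 0.31 (adjusted p = 0.0189). Kitl, which encodes SCF, had at most 0.414 CPM of RNA in any vehicle mouse and 0.678 to 7.50 CPM in treated mice (log2 4.64 ± 0.82, adjusted p = 0.000706, and 3.21 ± 0.77, adjusted p = 0.00986). Footprints assigned to Kitl went the other way, from 46.5 ± 15.5 CPM (SD, n = 3) to 15.2 ± 1.44 CPM (n = 4) in sgScramble mice (log2 -1.61 ± 0.28, adjusted p = 0.00494). Footprints at 46.5 CPM stood beside almost no RNA in the same mice, so this footprint value is given as uncertain.

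Receptors and signalling proteins outside the set were counted in the same fits. Of all genes tested, 8.6% rose and 4.34% fell in sgScramble RNA, and 5.69% rose and 4.18% fell in sgOgfod1 RNA. In footprints 8.12% rose and 7.44% fell in sgScramble cells, and 4.65% rose and 3.56% fell in sgOgfod1 cells. Of 16 other cytokine receptors 4 rose and 0 fell in sgScramble RNA (median 0.62), and 2 rose and 3 fell in sgOgfod1 RNA (median 0.08). Those that rose in sgScramble RNA included Tgfbr2 (1.08 ± 0.26, edgeR quasi-likelihood, adjusted p = 0.0083) and Il2rg, the common gamma chain (0.75 ± 0.20, adjusted p = 0.0153). In sgScramble footprints 0 of 11 rose and 2 fell: Il6ra, the interleukin 6 receptor (-1.18 ± 0.21, adjusted p = 0.00157), and Tnfrsf1a (-0.46 ± 0.14, adjusted p = 0.0307). Il6ra fell in sgOgfod1 footprints too (-1.59 ± 0.26, adjusted p = 0.00236), where 1 of 11 rose and 3 fell. Of 31 signalling genes downstream of the receptors 1 rose and 6 fell in sgOgfod1 RNA (median -0.10), and 2 of 30 rose and 3 fell in sgOgfod1 footprints (median -0.15). In sgScramble RNA the balance was the other way, as 8 rose and 2 fell (median 0.02), and in sgScramble footprints 1 of 30 rose and 7 fell (median -0.16). The kinase gene Fyn rose in RNA (3.65 ± 0.65, adjusted p = 0.000762), the adaptor Ywhaz rose in RNA (0.50 ± 0.10, adjusted p = 0.00259) and in footprints (0.56 ± 0.11, adjusted p = 0.00299), and Mapk3 fell in footprints (-0.56 ± 0.13, adjusted p = 0.00708). Stat5b, which acts below the beta chain, fell with treatment of sgOgfod1 cells, by 0.71 ± 0.16 in RNA (adjusted p = 0.00658) and by 0.74 ± 0.16 in footprints (adjusted p = 0.00869). Of the sheddase genes Adam10 and Adam17, whose proteins release receptors from the surface, Adam17 fell in sgOgfod1 footprints (-0.60 ± 0.13, adjusted p = 0.0115).

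Other surface markers of stem and progenitor cells moved in both directions. The shares of all genes given for the lists above apply here too. Of 19 tested in sgScramble RNA 3 rose and 3 fell (median 0.27), and of 17 in footprints 3 rose and 6 fell (median -0.17). In sgOgfod1 cells 6 rose and 2 fell in RNA (median 0.44), and 2 rose and 4 fell in footprints (median -0.44). Prom1, the gene of CD133, rose from 32.1 ± 3.55 to 73.4 ± 24.7 CPM in sgScramble RNA (SD, n = 5 and 7; log2 1.19 ± 0.26, edgeR quasi-likelihood, adjusted p = 0.00335) and by 1.11 ± 0.21 in footprints (adjusted p = 0.00305). In sgOgfod1 footprints its rise was 1.85 ± 0.24 (adjusted p = 0.000468). The tetraspanin Cd9 rose in RNA of sgScramble (1.63 ± 0.28, adjusted p = 0.000541) and sgOgfod1 cells (1.99 ± 0.29, adjusted p = 0.00016). Cd48, found on committed progenitors, fell in footprints of sgScramble (-0.83 ± 0.15, adjusted p = 0.00225) and sgOgfod1 cells (-0.96 ± 0.19, adjusted p = 0.00687). Of 21 surface genes of mature myeloid cells 13 rose in sgScramble RNA (median 1.18), and 10 rose and 1 fell in sgOgfod1 RNA (median 1.14). In footprints 9 of 20 rose and 4 fell in sgScramble cells (median 0.78), and 1 rose and 6 fell in sgOgfod1 cells (median 0.35). Those that rose in RNA included the neutrophil marker Ly6g (2.83 ± 0.46, adjusted p = 0.000362, and 2.43 ± 0.46, adjusted p = 0.00159). Of the neutrophil genes 12 of 15 rose in sgScramble and 11 of 15 in sgOgfod1 RNA, and of the macrophage genes 16 and 11 of 17. The part of these cells in the falls of Kit, Cd34 and Cd93 was not tested.

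The genes whose RNA profile lay closest to a member were found over 23 RNA libraries among 8888 protein-coding genes of at least 10 CPM, by the root mean square difference of mean-centred log2 levels. Cd93 was closest to Dennd1a (0.331 log2 units, where the profile of Cd93 itself varied by 0.966). Csf1r was closest to the lysozyme gene Lyz2 (0.344, against 0.937) and to S100a10 (0.382). Flt3 and Cd34 had no close match, with 0.71 for Bex6 and 0.775 for Kcne3. The profiles of Csf2ra, Csf2rb, Csf3r and Il3ra varied little themselves (0.265 to 0.524), and their nearest genes were Cnppd1 (0.139), Susd6 (0.201), Slc35e1 (0.195) and Col11a2 (0.262).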

How the data were processed

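Messenger RNA (23 libraries, Smart-seq2, without strand or molecular identifiers) and ribosome footprints (12 libraries) were counted per Ensembl gene, and the deposited values are raw counts made by the authors. The tools named in the submitters' processing notes are featureCounts, STAR, Bowtie2, cutadapt and SAMtools, and the builds GRCm38 and mm10. Not given in the sources used here are their versions, the strand setting and how reads with several matches were counted. Every per-sample column matched a sample. GENCODE release M21 named 55141 of 55487 genes, and gave coordinates, exon and coding lengths.

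Counts were tested with edgeR 4.0.16 (R 4.3.3): TMM scaling, filterByExpr, and the quasi-likelihood test in 1 fit over the 4 groups of an assay (21474 genes in RNA, 18290 in footprints, with 19 and 8 residual degrees of freedom). Translation efficiency was tested in 1 model of both assays over the 12 mice with both libraries (interaction of assay and group), blocked by mouse, since the labels give both libraries of a mouse the same number. Over 6270 genes the footprints of 11 of 12 mice correlated best with their own RNA, among the 2 to 4 mice of their group. The 2 treated sgOgfod1 mice are 1 outcome, since their deviations from the group mean mirror each other. Adjustment over all genes followed Benjamini and Hochberg, and calls are adjusted p-values under 0.05. Standard errors came from the quasi-likelihood statistic. DESeq2 1.42.0 and limma 3.58.1 (voom) served as alternatives. In some contrasts of footprints or translation efficiency an alternative gave no adjusted p for Flt3 or Il3ra, which then could not be called. Intervals were not computed for single libraries, and PCR copies were not told apart.

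The steps were tested on simulated counts: for treatment in sgScramble cells, 88% of 100 genes changed by a log2 of 1 were recovered in RNA (20886 genes), 89% in footprints (17864) and 92% in translation efficiency (27557), with 6, 6 and 3 false calls. Genes of low level were not among those changed, and each gene was given the spread typical of its level. Recovery of genes with a wider spread, or in groups with a library standing apart, was not tested.

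The genes and gene lists were chosen with earlier results of these data known. All 9 genes, Ogfod1 and Csf2rb2 were named in every comparison. Of each list up to 3 genes with the smallest p could be named for treatment in sgScramble cells and up to 2 in other contrasts. Hoxa9, Meis1, Myb, Adam10, Vcam1, Slc40a1, Adgre1 and the 8 endothelial genes were named only as list members. Motif matches used the RefSeq promoter table, which held 6 of the 9 genes. The gene with the RNA profile nearest to that of Kit is not reported here.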

Additional observations from a re-analysis of the deposited data

Results flagged for a closer look

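Within groups of 4 to 10 libraries the highest and the lowest value of each of the 9 genes were compared with the rest of the group by Dixon's test at the 95% level. Of 45 groups tested 2 held a library far from the others, and chance alone flags about 1 in 20 groups.

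Flt3 footprints in treated sgScramble replicate 1 were 3.05 CPM, the highest of 4, with the nearest library at 0.834 CPM. Its 28 counts compare with 3 to 7 counts in the other mice of the group, and Flt3 RNA of the same mouse, 7.25 CPM, was also the second highest of its group.

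Csf2ra RNA in vehicle sgOgfod1 replicate 4 was 339 CPM, the lowest of 5, with the nearest library at 408 CPM. The same library had the lowest Csf1r, Csf2rb and Flt3 RNA of its group, the highest Kit (233 CPM) and Il3ra (16.2 CPM) RNA, and 1053 CPM of summed mast cell and basophil genes, and the part of these cells in its receptor levels was not tested.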

How the results depend on the processing

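No called value of the 9 genes changed direction under the alternatives run. The replicate numbers do not pair mice of different groups (same-numbered deviations correlated between -0.686 and 0.446 in RNA and between -0.088 and 0.118 in footprints), and a fit with the replicate block is given here alone: it left 0 instead of 1 of the 9 genes lower in treated sgOgfod1 against treated sgScramble footprints (Cd34 at -2.53, adjusted p = 0.119), added calls for Flt3 (-2.39, adjusted p = 0.00734, and -2.89, adjusted p = 0.0105) and Csf2rb (0.50, adjusted p = 0.0316) in footprints, and ended that of Il3ra in sgOgfod1 footprints (-0.63, adjusted p = 0.0649).

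The number of the 9 genes called changed by over 1.5 times as follows. For treatment in sgScramble RNA limma voom gave 7 instead of 3. For treatment in sgOgfod1 RNA the term for library numbers of 17 and above gave 3 instead of 6; in sgOgfod1 footprints it gave 0 instead of 6, and the 2 groups alone gave 2. All treated sgOgfod1 footprint libraries, and no vehicle library, have numbers of 17 and above, so that term and treatment are nearly confounded there. For genotype in RNA, limma voom and the 2 groups alone gave 1 instead of 0 under vehicle, and the mice with footprints alone 1 instead of 0 under treatment (Csf3r, 0.54, adjusted p = 0.025). For genotype in vehicle footprints DESeq2, limma voom, protein-coding genes alone and the 2 groups alone each gave 1 instead of 0, and no filter on low counts gave 3. For genotype in treated footprints limma voom, the term for library numbers and the 2 groups alone each gave 0 instead of 1. For translation efficiency in sgScramble cells DESeq2 gave 2 instead of 1, protein-coding genes alone 3 and no replicate block 0. The cause was not tested.

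Leaving out single libraries gave 3 to 4 calls for treatment in sgScramble RNA, 5 to 7 in sgOgfod1 RNA, 5 to 7 in sgScramble footprints and 3 to 7 in sgOgfod1 footprints. It gave 0 to 1 for genotype in vehicle footprints, 0 to 2 in treated footprints, 0 to 1 for the footprint interaction and 0 to 2 for translation efficiency in sgScramble cells. The alternatives without treated sgScramble replicates 4, 6 and 7, without vehicle sgOgfod1 replicate 4, and with Csf3r and its pseudogene summed were chosen after seeing the data. Over all genes, calls for treatment ran from 1468 to 5687 in sgScramble RNA (2779 in the fit reported), from 850 to 4300 in sgOgfod1 RNA (2120), from 1365 to 3810 in sgScramble footprints (2847) and from 6 to 2091 in sgOgfod1 footprints (1503), where the 6 came with the term for library numbers. For genotype they ran from 3 to 497 (25) in vehicle and 13 to 609 (84) in treated RNA, and from 70 to 1012 (331) and 2 to 929 (289) in footprints. For translation efficiency they ran from 49 to 1071 (266) and 7 to 276 (24) for treatment and from 1 to 401 (17) and 7 to 341 (14) for genotype. For the interaction they ran from 0 to 19 (0) in RNA, 1 to 260 (12) in footprints and 0 to 173 (0) in translation efficiency. Depth limits Flt3 footprints, at 3 to 28 counts in treated mice, and Cd34 footprints in treated sgOgfod1 mice, at 7 and 33.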
